A study of Mus musculus with 24 samples.

Results

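The comparison described here asks whether the expanded huntingtin allele acts on open chromatin differently when Msh3 is missing. At each peak the Q140 effect without Msh3 (Msh3-/- X Het (Q140) KI minus Msh3-/-) was set against the Q140 effect with Msh3 (Het (Q140) KI minus wild type), and the second was subtracted from the first. All 24 of 24 libraries entered this difference of differences, and 146155 of 147020 deposited peaks had enough counts to be tested. ATAC-seq, in which a transposase inserts adapters into DNA that nucleosomes leave free, was run on nuclei of the striatum sorted for NeuN, a protein of neuronal nuclei. All animals were C57BL/6 mice of 12 months, with 3 females and 3 males in each of 4 genotypes. Wild-type animals carried normal Htt and Msh3. Q140 animals were heterozygous for a knock-in of an expanded CAG repeat in Htt, Msh3-/- animals lacked Msh3 on normal Htt, and the crossed animals, called Msh3-/- X Q140 here, had both changes. The labels name no tissue-specific driver for either change, and the CAG repeat length of the sorted nuclei was not analysed here.

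Huntingtin with an expanded polyglutamine tract causes Huntington's disease, in which the spiny projection neurons (SPN) of the striatum are hit early. Msh3 is a mismatch repair protein that binds small DNA loops, and in mice it is needed for the CAG repeat to grow in neurons over life. Developmental regulators such as the Hox, T-box and Onecut genes are held silent in mature neurons by Polycomb complexes, which compact chromatin and often sit on CpG islands.

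Total counts in peaks ran from 4.37 to 11.7 M per library, where M is mega, and the 4 genotypes overlapped in depth, in promoter share and in the share taken by the 10 highest peaks. A pair of libraries stood apart. Q140 F2, labelled as the second Q140 female, had 1.47% of its counts on the X chromosome, the level of the males. Its 4586 counts on the Y chromosome were the fewest of the 24 libraries. Y counts overlapped between the sexes, at 4586 to 18624 in females and 7388 to 16123 in males. Q140 F2 was below every male, but with such overlap Y counts alone do not settle its sex. The labelled sex was used here. In Msh3-/- X Q140 M1 the 10 highest peaks held 12.7% of counts. Promoter peaks of 8 pan-neuronal genes summed to 170 to 255 CPM in every library, where CPM are counts scaled to a common library size, and those of 28 SPN genes to 475 to 738. Promoter peaks of 7 oligodendrocyte genes summed to 25.4 to 39.0 CPM, those of 5 astrocyte genes to 27.7 to 41.9, and 1 microglial promoter peak held 2.04 to 6.64. Signal at these glial promoters was thus low but present, and which cells gave it was not tested.

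The difference of differences passed the test at 33 peaks, which is 0.0226% of those tested (edgeR's quasi-likelihood test, Benjamini-Hochberg adjusted p under 0.05). At 14 peaks (0.00958%) it was positive and at 19 (0.0130%) negative, and among the called peaks its size ran from 0.94 to 1.90 on the log2 scale. All 33 had changed in Q140 against wild type, a comparison that called 10.3% of tested peaks. The 14 positive peaks had fallen in Q140 and the 19 negative peaks had risen. Since the same wild-type and Q140 animals enter both comparisons, these effects are a description of the called peaks and no separate evidence. Over all tested peaks the median difference of differences was 0.01, with the middle 50% between -0.19 and 0.21. At an unadjusted p under 0.05 there were 10696 peaks (7.32%) where chance gives 7308. A further 47 peaks had an adjusted p between 0.05 and 0.10, 24 positive and 23 negative. The weakest call had an adjusted p of 0.0497, and the nearest peak outside, in the protocadherin gene Pcdhga4, had 0.0513 with a difference of 0.92 ± 0.19 (SE).

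The number of calls rested on single libraries, while 6 of the peaks were called whichever animal was left out. Leaving out wild-type F1, F2, F3, M1, M2 or M3 in turn gave 22, 29, 24, 8, 36 and 9 calls. For the same order of Msh3-/- animals the counts were 17, 36, 150, 15, 15 and 14. Without single Q140 animals they were 62, 12, 8, 21, 10 and 11, and without single Msh3-/- X Q140 animals 18, 11, 29, 8, 12 and 67. Without both libraries that stood apart, 9 peaks were called, and 8 of these belong to the 33. The 6 peaks called in each of the 24 fits were those at Gm26688, Onecut1, Hoxc8 and 5031434C07Rik on the negative side and Pphln1 and Nup35 on the positive side. Those at Cbx8 and Serpina3g were called in 23 of the 24 fits and 20 peaks in fewer than 12. Per peak, the estimates moved little: at Onecut1 from -1.75 to -1.50, and at Pphln1 from 1.21 to 1.42.

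The promoter of Onecut1, a homeobox transcription factor of liver, pancreas and some neurons of the embryo, was more open in Q140 animals than in wild type and was at the wild-type level in Msh3-/- X Q140 animals. The peak lies on chromosome 9, 74861498 to 74862162 (GRCm38, as for all positions), across the start of the gene. It held 3.19, 4.03 and 4.30 CPM in wild type (lowest, median and highest of 6 animals), 3.30, 4.40 and 6.79 in Msh3-/-, 9.92, 11.8 and 13.8 in Q140 and 2.71, 4.33 and 5.64 in Msh3-/- X Q140. Every Q140 animal was above every animal of the other 3 genotypes, and those 3 overlapped one another. The Q140 effect was 1.60 ± 0.16 with Msh3 and -0.03 ± 0.18 (SE) without it, and the difference of differences was -1.63 ± 0.24 (95% interval -2.12 to -1.15, adjusted p = 0.00160). In CPM the difference of differences was -8.18 ± 0.959 (SE).

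The 250 bases before a RefSeq start (GRCm38.p6) are printed for 1 called peak of each direction that reaches one. They run 5′ to 3′ with CpG in capitals, to show the base composition there. Not every called peak was searched, so others may reach such a start too. Onecut1 is at chr9:74861671-74861920 on the plus strand, with all 250 bases inside the peak. Gm39871, a predicted gene whose start lies at the edge of the called peak near Nup160, is at chr2:90670297-90670546 on the minus strand, with 83 bases inside the peak.
Onecut1: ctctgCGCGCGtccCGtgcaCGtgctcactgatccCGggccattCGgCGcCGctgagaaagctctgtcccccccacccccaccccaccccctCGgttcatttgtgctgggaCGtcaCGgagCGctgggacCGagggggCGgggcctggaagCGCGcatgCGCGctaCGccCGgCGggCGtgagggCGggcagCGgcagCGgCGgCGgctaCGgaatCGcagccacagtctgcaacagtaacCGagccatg
Gm39871: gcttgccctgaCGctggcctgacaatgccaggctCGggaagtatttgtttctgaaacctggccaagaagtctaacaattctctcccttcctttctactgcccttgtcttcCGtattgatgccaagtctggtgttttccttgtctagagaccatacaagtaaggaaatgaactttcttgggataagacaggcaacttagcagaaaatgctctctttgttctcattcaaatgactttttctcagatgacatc
CpG reads the same on both strands and does not overlap itself. The Onecut1 stretch holds 31 CpG and 71.6% G and C, and 94.8% of 32851 promoter stretches of this length hold fewer CpG. The Gm39871 stretch holds 3 CpG and 44.0% G and C, against a median of 6 CpG and 52.4% over all promoters, of which 92.1% hold at least 1 CpG.

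The smallest adjusted p belonged to a peak on a CpG island inside Tfap2a, the gene of transcription factor AP-2 alpha, which acts in neural crest and skin. The deposited annotation gives it to an intron of Gm26688 (chromosome 13, 40722641 to 40723512). It held 8.04, 9.45 and 11.2 CPM in wild type, 7.15, 8.37 and 9.64 in Msh3-/-, 14.8, 19.3 and 22.4 in Q140 and 5.21, 6.10 and 8.14 in Msh3-/- X Q140. Q140 animals stood above all others here too. The Q140 effect was 0.99 ± 0.12 with Msh3 and -0.40 ± 0.14 without, so the estimates lay on opposite sides of 0, each by more than 2 SE, the only called peak of which this holds. The effect without Msh3 did not pass (adjusted p = 0.356), while the difference of differences was -1.39 ± 0.19 (adjusted p = 0.000418).

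A peak in the Hoxc cluster followed the same course. It lies inside Hoxc6 and 9.07 kb from the start of Hoxc8, both homeobox genes of the body axis (chromosome 15, 102999076 to 103000139). Wild-type animals held 3.88, 4.93 and 6.03 CPM, Msh3-/- animals 3.78, 5.12 and 7.31, Q140 animals 9.23, 11.4 and 13.6 and Msh3-/- X Q140 animals 3.13, 4.43 and 4.87. The difference of differences was -1.47 ± 0.22 (adjusted p = 0.00192), made of a Q140 effect of 1.25 ± 0.15 with Msh3 and -0.22 ± 0.16 without.

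A CpG island peak 12.7 kb from Cbx8, a chromobox subunit of Polycomb complex PRC1, also rose in Q140 (chromosome 11, 119053202 to 119054036). Levels were 4.87, 6.81 and 11.1 CPM in wild type, 5.56, 6.78 and 10.6 in Msh3-/-, 23.6, 31.1 and 35.7 in Q140 and 5.70, 11.4 and 17.4 in Msh3-/- X Q140. Q140 stood apart from every other genotype, and the crossed animals overlapped both groups with normal Htt while their median was higher. The Q140 effect was 2.12 ± 0.17 with Msh3 and 0.65 ± 0.18 without (adjusted p = 0.165), and the difference of differences was -1.48 ± 0.25 (adjusted p = 0.0159).

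A peak in an intron of Lmcd1, a LIM domain cofactor, annotated to 5031434C07Rik (chromosome 6, 112283963 to 112284515), held 1.38, 2.59 and 3.17 CPM in wild type, 3.32, 3.86 and 6.72 in Msh3-/-, 6.38, 8.45 and 9.40 in Q140 and 3.94, 4.77 and 6.22 in Msh3-/- X Q140. Here the Msh3-/- animals were all above wild type, which the comparison of those groups did not call (0.75, adjusted p = 0.849). The difference of differences was -1.48 ± 0.25 (adjusted p = 0.00972). It joins a Q140 effect of 1.66 ± 0.18 with Msh3 to one of 0.18 ± 0.17 without. At 18 of the 19 negative peaks the Msh3 effect on normal Htt was above 0, with a median of 0.55 and 0 called, a comparison that called 0.0130% of all tested peaks. Wild type enters the difference of differences with a plus sign and Msh3-/- with a minus sign, so such a shift is part of the measure itself.

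**Figure D1:**
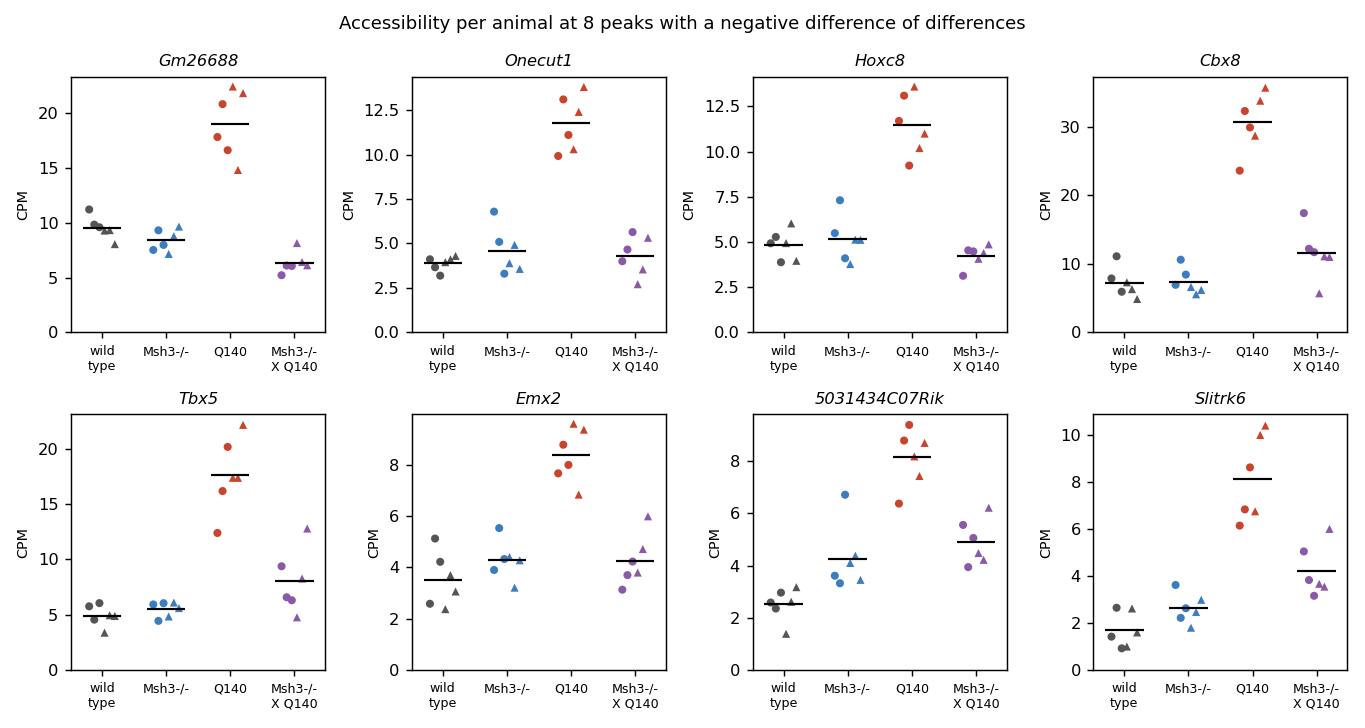
Normalised read counts (CPM, vertical axes from 0) at 8 called peaks with a negative difference of differences, by genotype, with circles for females, triangles for males and a bar at the mean of 6 animals. At Onecut1, Gm26688, Hoxc8 and Cbx8 the Q140 animals lie above all animals of the other 3 genotypes.

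Regulators of development gave 2 more negative peaks. An intron of Tbx5, a T-box factor of heart and forelimb (chromosome 5, 119844848 to 119845621), held 3.36, 4.90 and 6.04 CPM in wild type, 4.43, 5.76 and 6.09 in Msh3-/-, 12.4, 17.4 and 22.2 in Q140 and 4.75, 7.42 and 12.8 in Msh3-/- X Q140. The highest crossed animal overlapped the lowest Q140 animal. For Tbx5 the difference of differences was -1.29 ± 0.25 (adjusted p = 0.0406). A peak 14.4 kb from Emx2, a homeobox factor of the developing cortex (chromosome 19, 59472763 to 59473318), went from medians of 3.38 and 4.31 CPM in wild type and Msh3-/- to 8.41 in Q140, against 4.01 in Msh3-/- X Q140. Its difference of differences was -1.21 ± 0.24 (adjusted p = 0.0497), with Q140 animals (6.85 to 9.62 CPM) above all crossed animals (3.13 to 6.00). Both calls are near the threshold: they held in 7 and 6 of the 24 fits that left out 1 animal.

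The other negative peaks named by rank lay in introns or between genes. They include peaks in introns of Gatb, a subunit of a mitochondrial tRNA amidotransferase (-1.15 ± 0.21), of Cpxm2, a carboxypeptidase-like protein (-1.17 ± 0.22), and of Necab1, a neuronal calcium-binding protein (-1.21 ± 0.23). A peak in Zfp804b, annotated to Tex47, gave -1.44 ± 0.27 and one in Exoc6b, an exocyst gene, annotated to the retinoic acid hydroxylase gene Cyp26b1, gave -1.56 ± 0.30. Between genes, a peak 292 kb from Galc, the lysosomal galactosylceramidase, gave -1.85 ± 0.35. Levels at Galc were low, at 0.453 to 1.32 CPM in wild type and 1.37 to 3.32 in Msh3-/-, which lay above. Q140 overlapped the crossed animals at Galc, and Msh3 loss in Q140 was not called there (-0.68 ± 0.22). A peak 678 kb from A430085M09Rik gave -1.47 ± 0.29. Adjusted p-values of these 7 ran from 0.0368 to 0.0389. The last was the single called peak at which the Q140 effect passed without Msh3 as well: 2.61 ± 0.19 with Msh3 and 1.14 ± 0.19 without (adjusted p = 0.00539). That peak held 7.21 to 15.2 CPM in Q140, 3.66 to 9.62 in Msh3-/- X Q140 and 1.03 to 3.15 in the animals with normal Htt. The crossed animals were thus above those with normal Htt and overlapped Q140. Of the remaining 5, chosen after their values were seen, a peak 627 kb from Slitrk6, a neuronal transmembrane protein gene, had -1.58 ± 0.31. A peak in an intron of Tnr, the gene of the matrix protein tenascin-R, had -1.71 ± 0.33. The others lay 244, 465 and 167 kb from Pik3r1, Rps29 and Nell1os, at -1.31, -1.90 and -1.28.

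At the positive peaks accessibility was low in Q140 animals and nearer to wild type in Msh3-/- X Q140 animals. The smallest adjusted p was at a simple repeat in an intron of Pphln1, the gene of periphilin, a member of the HUSH silencing complex (chromosome 15, 93443416 to 93444131). It held 12.8, 19.7 and 23.9 CPM in wild type, 16.2, 17.7 and 25.3 in Msh3-/-, 4.53, 5.25 and 5.56 in Q140 and 11.0, 12.9 and 17.6 in Msh3-/- X Q140. All Q140 animals lay below all animals of the other 3 genotypes. The Q140 effect was -1.87 ± 0.15 with Msh3 and -0.54 ± 0.14 without (adjusted p = 0.101), and the difference of differences was 1.32 ± 0.20 (95% interval 0.91 to 1.73, adjusted p = 0.00222).

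The deposited annotation gave 2 peaks to nuclear pore genes. Near Nup35, a pore scaffold gene, a peak on an LTR element (chromosome 2, 80729285 to 80729840) held 10.4, 14.3 and 17.6 CPM in wild type, 8.41, 13.4 and 15.6 in Msh3-/-, 2.72, 3.80 and 5.09 in Q140 and 7.24, 8.79 and 10.9 in Msh3-/- X Q140. Q140 stood apart from the crossed animals, which overlapped both groups with normal Htt. This peak had a difference of differences of 1.38 ± 0.22 (adjusted p = 0.00348). Near Nup160, also a pore scaffold gene (chromosome 2, 90669968 to 90670379), where the start of Gm39871 is closer, medians were 6.54 CPM in wild type, 6.01 in Msh3-/-, 1.79 in Q140 and 4.94 in Msh3-/- X Q140. The difference of 1.53 ± 0.27 (adjusted p = 0.0159) was the largest of the positive calls. These peaks lie 90.3 and 7.04 kb from the starts of the genes, and nearness does not show which gene a peak serves.

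Serpina3g, which encodes an inhibitor of serine proteases, had the only peak of promoter class among the 14 (chromosome 12, 104235249 to 104235766). It held 7.30, 7.96 and 8.91 CPM in wild type, 4.65, 7.46 and 10 in Msh3-/-, 1.29, 2.05 and 2.61 in Q140 and 3.65, 5.30 and 6.57 in Msh3-/- X Q140. The crossed animals lay between: above every Q140 animal and below every wild-type animal. The Q140 effect was -1.96 ± 0.18 with Msh3 and -0.55 ± 0.16 without (adjusted p = 0.207), and the difference of differences was 1.42 ± 0.25 (adjusted p = 0.0159).

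At a peak on a LINE element near Npy2r, the Y2 receptor of neuropeptide Y (chromosome 3, 82633392 to 82633778), no loss was detected without Msh3. The Q140 effect there was -1.25 ± 0.19 with Msh3 and 0.14 ± 0.17 without, and the difference of differences 1.39 ± 0.25 (adjusted p = 0.0267). Levels were 3.52 to 6.34 CPM in wild type, 3.81 to 5.20 in Msh3-/-, 1.65 to 3.36 in Q140 and 3.82 to 6.77 in Msh3-/- X Q140. A peak 9.90 kb from Rhob, a small GTPase (chromosome 12, 8509642 to 8510173), had -1.08 ± 0.15 with Msh3 and 0.01 ± 0.15 without (difference 1.09 ± 0.21, adjusted p = 0.0375). At these 2 peaks alone among the 14 the effect without Msh3 was above 0. The others named by rank included a peak 871 kb from Cdh11, a cadherin (1.35 ± 0.26), and one in the helicase gene Ddx11 (1.04 ± 0.20). Another lay 43.8 kb from Bambi, a decoy receptor of TGF-beta signalling (1.19 ± 0.22), but nearer to the body of Cul2. The rest were annotated to Gm36536, 4930553C11Rik and 4921524J17Rik (1.33, 1.35 and 0.94). From Cdh11 to 4921524J17Rik, adjusted p ran from 0.0368 to 0.0440. The 2 remaining peaks, near Epb41l4aos and at Olfr453, both with adjusted p = 0.0497, were chosen after their values were seen.

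**Figure D2:**
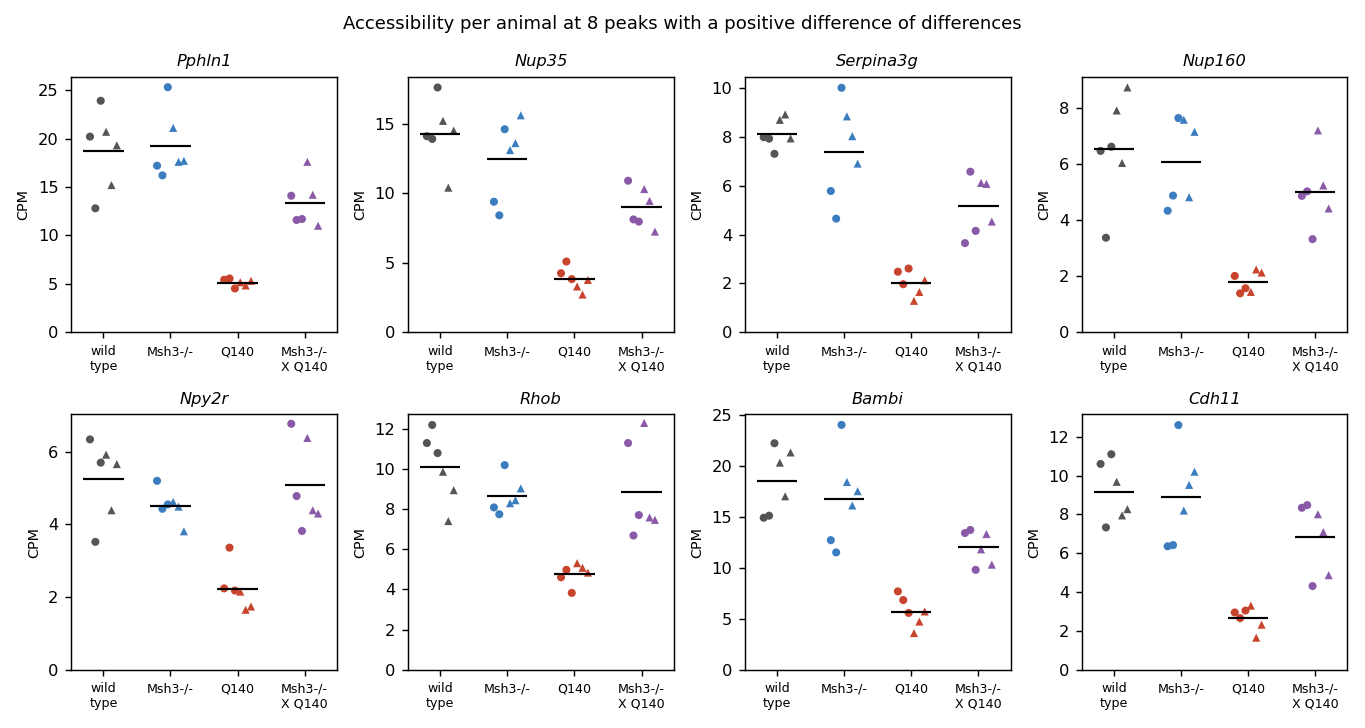
Normalised read counts (CPM, vertical axes from 0) at 8 called peaks with a positive difference of differences, by genotype, with circles for females, triangles for males and a bar at the mean of 6 animals. At Pphln1, Nup35 and Serpina3g the Q140 animals lie below all animals of the other 3 genotypes.

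Set side by side, the Q140 effects at the called peaks were smaller without Msh3 in both directions. At the 14 positive peaks the median Q140 effect was -1.70 with Msh3 (range -1.96 to -1.08) and -0.41 without (-0.55 to 0.14), and 0 of the 14 passed without Msh3, where 0.116% of all tested peaks did. At the 19 negative peaks the medians were 1.61 (0.99 to 2.61) and 0.16 (-0.40 to 1.14), with 1 of 19 passing. Loss of Msh3 in Q140 animals, which called 0.529% of all tested peaks, called 14 of 14 and 17 of 19, with medians of 1.18 and -0.94. On normal Htt the loss of Msh3 gave medians of -0.15 and 0.55 and called 0 of both. Q140 and wild type did not overlap at any of the 33 peaks, and Q140 and Msh3-/- X Q140 were apart at 13 of 14 and 10 of 19. Msh3-/- X Q140 and Msh3-/- were apart at 0 of 14 and 1 of 19. These comparisons share animals with one another and with the choice of the peaks. The separation of groups is thus a description of the calls, and its share over all tested peaks was not counted. In bulk nuclei, a change in the share of nuclei of a type and a change within each nucleus cannot be told apart.

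**Figure D3:**
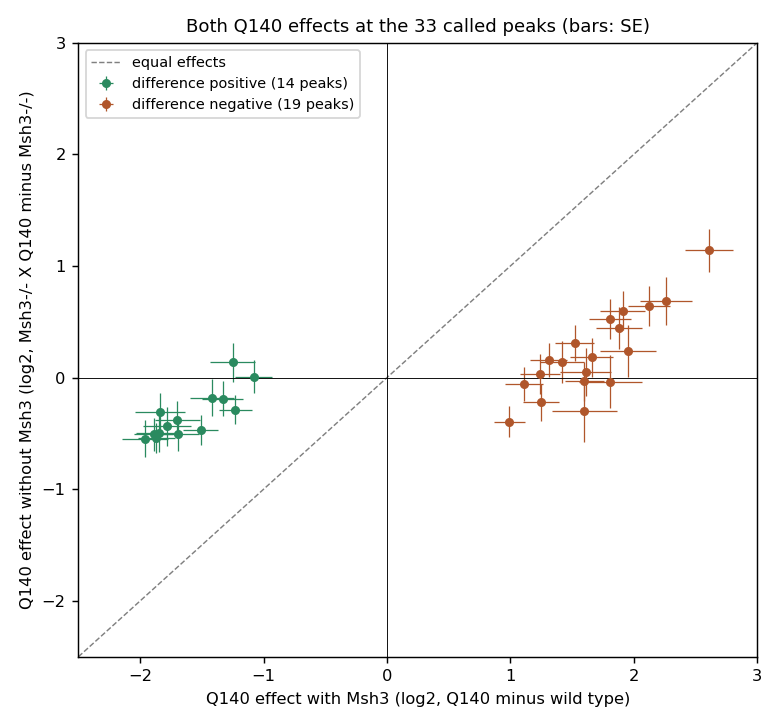
Q140 effect with Msh3 (horizontal, Q140 minus wild type) against the Q140 effect without Msh3 (vertical, Msh3-/- X Q140 minus Msh3-/-), both log2, at the 33 called peaks, with bars of 1 SE and a dashed line of equal effects. Positive calls lie at -1.96 to -1.08 and negative calls at 0.99 to 2.61 on the horizontal axis, and all but A430085M09Rik did not pass the test on the vertical axis.

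The called peaks were of middling strength. Their median level was 8.79 CPM (positive) and 5.11 CPM (negative), against 3.43 over all tested peaks. Of 12610 peaks at 16 CPM or more, 0 passed, and the 83315 peaks under 4 CPM held 0 positive and 5 negative calls. Over all tested peaks 0.0226% were called. The median SE of a difference of differences was 0.28, against 0.20 for the Q140 effect with Msh3, and the smallest called difference was 0.94. Of the 33 calls 2 were of promoter class, near the share of that class among tested peaks, 6.96%. Of the positive calls 8 of 14 lay outside annotated repeats and islands, and of the negative calls 17 of 19, with the other 2 on CpG islands. Over all tested peaks 76.1% lay outside repeats and islands. The X chromosome held 0 calls in 2976 peaks, near the 0.0226% of all tested peaks.

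Other tested peaks within 50 kb of the called ones did not choose them. Over the 33 loci, 154 of 208 such neighbours (74.0%) had the sign of the called peak: 87 of 118 around negative calls, where 49.2% of all tested peaks were negative, and 67 of 90 around positive calls, where 50.8% were positive. At an unadjusted p under 0.05 there were 44 neighbours with that sign and 5 with the other. Within 50 kb of the Onecut1 promoter peak, 11 of 12 other tested peaks had a negative difference of differences (median -0.45), and 5 of them had an unadjusted p under 0.05, with 0 such peaks in the other direction. Around the Pphln1 peak 10 of 10 were positive (median 0.41), 5 with an unadjusted p under 0.05. Around the Hoxc8 and Emx2 peaks 7 of 7 each were negative, at medians of -0.26 and -0.57, and around Nup35 3 of 3 were positive at 0.82. Around Cbx8 9 of 14 were negative, with 5 negative and 2 positive at an unadjusted p under 0.05. Near Necab1 4 of 12 peaks, near 4921524J17Rik 4 of 9, near 4930553C11Rik 1 of 3 and near Tex47 0 of 1 had the sign of the called peak. Neighbouring peaks can share a domain of chromatin and are not independent of the called peak.

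Of 815 peaks at 113 Polycomb-target developmental regulators, 3 passed as negative (Onecut1, Tbx5 and Emx2), which is 0.368% against 0.0130% of all tested peaks, and 0 as positive. The calls at Tbx5 and Emx2 held in only 7 and 6 of the 24 fits that left out 1 animal. The lists were written with earlier results of these data known, so such shares describe the lists and test nothing. Over the 815 peaks the median difference of differences was -0.13, against 0.01 over all tested peaks. At an unadjusted p under 0.05, 71 of them were negative and 16 positive, where 3.19% of all tested peaks were negative and 4.13% positive. Some lists of cell type markers had medians near it. Over 159 peaks of striatal interneuron markers the median was -0.12, with 11 negative and 5 positive at that p, and over 57 peaks of endothelial and pericyte markers -0.13, with 6 and 1. The share past that p in either direction was 10.7% for the developmental regulators, 10.1% for the interneuron markers and 12.3% for the endothelial and pericyte markers. The median Q140 effect at the peaks of developmental regulators was 0.09 with Msh3 and -0.03 without. Of 32 peaks in the Hox clusters, 1 passed, the one at Hoxc8 (0.0130% of all tested peaks passed as negative), and the median was -0.42, with 6 negative and 0 positive at an unadjusted p under 0.05. Cbx8 held the 1 call among 218 peaks of 31 Polycomb subunit genes (0.459%), whose median was -0.03. The peaks nearest the starts of the catalytic subunits Ezh2 and Ezh1 and of Eed, the subunit that reads the Polycomb mark, had -0.09 ± 0.15, -0.09 ± 0.18 and -0.05 ± 0.15, and did not pass. Onecut2, a relative of Onecut1, had 9 of 10 peaks below 0, with -0.34 ± 0.17 at its promoter (adjusted p = 0.674), and the promoter of Onecut3 had -0.52 ± 0.39 (adjusted p = 0.858). The list shares Emx1 with the cortical glutamatergic markers, a list of another cell type. Promoter peaks of 6 cortical glutamatergic genes summed to 21.1 to 27.1 CPM in wild type, 22.1 to 28.1 in Msh3-/-, 26.0 to 31.3 in Q140 and 19.9 to 30.5 in Msh3-/- X Q140. The difference of differences of that sum was -5.96 ± 2.23 CPM (SE), and for 8 promoter peaks of interneuron markers it was -3.85 ± 2.83. The part of these cell types in the results at developmental regulators was not tested.

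Genes of SPN identity leaned slightly positive, with 0 calls, near the 0.0226% of all tested peaks that were called. Over 879 peaks of 34 genes the median difference of differences was 0.12. At an unadjusted p under 0.05, 54 were positive and 7 negative. The share in either direction, 6.94%, was near the 7.32% of all tested peaks. Astrocyte markers, a list of another cell type, had a median of 0.10 over 150 peaks, with 8 positive and 1 negative at that p. The median Q140 effect at the SPN identity peaks was -0.13 with Msh3 and -0.03 without. Of the 879, 98 fell in Q140 with Msh3, where 6.11% of all tested peaks did. Without Msh3 0 passed, near the 0.116% of all tested peaks that did. Among the cAMP and dopamine signalling genes 0 of 559 peaks passed, also near that 0.0226%. Their median was 0.10, with 36 positive and 8 negative at an unadjusted p under 0.05. In either direction that was 7.87% of these peaks. None of the promoters named here passed. Ppp1r1b, which encodes DARPP-32, the integrator of dopamine signals, held medians of 81.3 CPM in wild type, 83.7 in Msh3-/-, 68.3 in Q140 and 77.0 in Msh3-/- X Q140, and its difference of differences was 0.07 ± 0.17. Drd1 and Drd2, the D1 and D2 dopamine receptors, gave 0.05 ± 0.16 and -0.32 ± 0.18, and Adcy5, the adenylyl cyclase of the striatum, -0.03 ± 0.15. The promoters of Rarb, Foxp1, Penk and Adora2a, SPN regulators and signalling genes, lay between 0.02 and 0.15. Tac1, the substance P precursor, had 0.35 ± 0.18 (adjusted p = 0.700).

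The remaining lists held 0 calls, near the 0.0226% of all tested peaks that were called. Medians were 0.04 over 282 peaks of activity-regulated genes, 0.01 over 69 peaks of clustered protocadherins and -0.01 over 92 peaks of mismatch repair and repeat instability genes. Msh6, a mismatch repair gene related to Msh3, gave -0.02 ± 0.17 at its promoter and did not pass. Fos, Fosb and Junb, subunits of the activity-induced factor AP-1, gave 0.23, -0.01 and 0.08, none called. Among markers of other cells, medians ran from -0.13 over 57 peaks of endothelial and pericyte genes to 0.10 over 150 peaks of astrocyte genes.

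**Figure D4:**
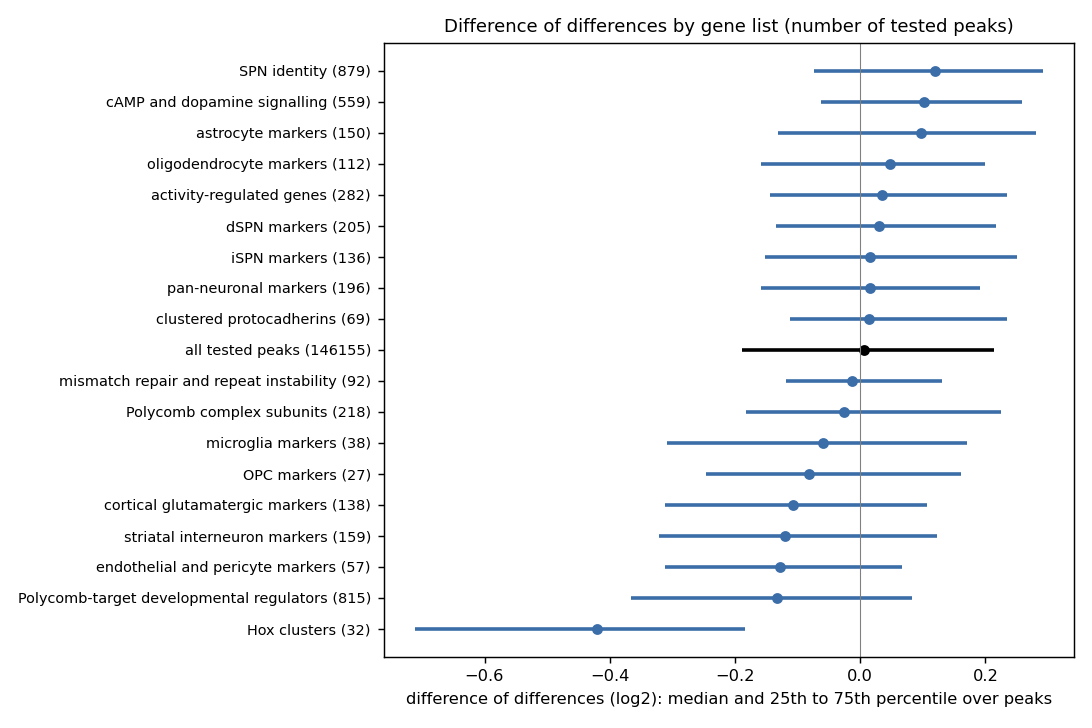
Difference of differences (log2) by gene list, with a dot at the median and a line from the 25th to the 75th percentile over the tested peaks of each list, whose number stands in brackets, and all tested peaks in black. Hox clusters (median -0.42) and Polycomb-target regulators (-0.13) lie lowest and SPN identity (0.12) highest.

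The targeted genes and their surroundings were looked at apart, since DNA next to a targeted allele can come from another strain. Neither the Htt nor the Msh3 promoter passed: their differences of differences were -0.01 ± 0.16 and -0.06 ± 0.15, with medians of 43.0 to 45.6 CPM at Htt and 66.5 to 71.1 at Msh3 across genotypes. Neither promoter peak checks the genotype. Within 20 Mb of Msh3, 1 of 2027 tested peaks was called, the one near Pik3r1. Within 20 Mb of Htt it was 0 of 2659, and over all tested peaks 0.0226%. Shares at an unadjusted p under 0.05 were 9.62% near Msh3 and 7.56% near Htt, against 7.28% elsewhere. Over the 25 tested peaks inside Msh3 the median Msh3 effect was 0.76 on normal Htt, with 4 peaks called, and 0.77 in Q140, with 9 called. The Msh3 promoter peak was not among them, at 0.01 and -0.05. The median difference of differences over the 25 was -0.02. Of the 19 peaks called for Msh3 loss on normal Htt, 18 lay within 20 Mb of Msh3 and 1 elsewhere. These 19 had 0 called interactions, near the share of 0.0226% over all tested peaks. The 1 outside, at the X-linked Pgk1 promoter, rose by 1.36 ± 0.12 on normal Htt and by 1.29 ± 0.12 in Q140, a difference of -0.07 ± 0.16. The largest of these 19 differences was 0.84 ± 0.27 at Gm4814 (adjusted p = 0.332).

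To see the size of the interaction in animals that did not choose the peaks, 200 peaks per direction were chosen by smallest p in 1 sex and measured in the other, on autosomes and outside the windows around Htt and Msh3. Positive peaks chosen in females had the same sign in males at 164 of 200 (82.0%), where 52.4% of all peaks were positive in males. Their mean log2 CPM, with wild type at 0, was -0.67 to -0.43 in the 3 Q140 males and -0.24 to -0.13 in the 3 Msh3-/- X Q140 males. These groups did not overlap, and the score gave a difference of differences of 0.35 ± 0.08 (SE over animals). It was 0.40 ± 0.16 for peaks chosen in males and measured in females, of which 159 of 200 (79.5%) had the same sign, against 50.6%. Negative peaks had the same sign at 133 of 200 (66.5%) in males, against 47.6% of all peaks, and at 153 (76.5%) in females, against 49.4%. Their differences of differences were -0.31 ± 0.10 and -0.37 ± 0.16. Peaks measured in the same animals are not independent, so the shares with the same sign count peaks, not animals. The peaks they are set against were not matched in level. In the females the positive set was at -0.72 to -0.68 in Q140 and -0.53 to -0.21 in Msh3-/- X Q140, apart. In males the negative set was at 0.50 to 0.65 and 0.16 to 0.335, apart as well, while in females it was at 0.40 to 0.84 and 0.21 to 0.42, which overlap. In the choosing sex the medians had been 1.19 and 1.25 for positive and -1.60 and -1.16 for negative peaks. In the animals that took no part in the choice they were smaller, at 0.36 and 0.50 for positive and -0.33 and -0.36 for negative peaks.

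**Figure D5:**
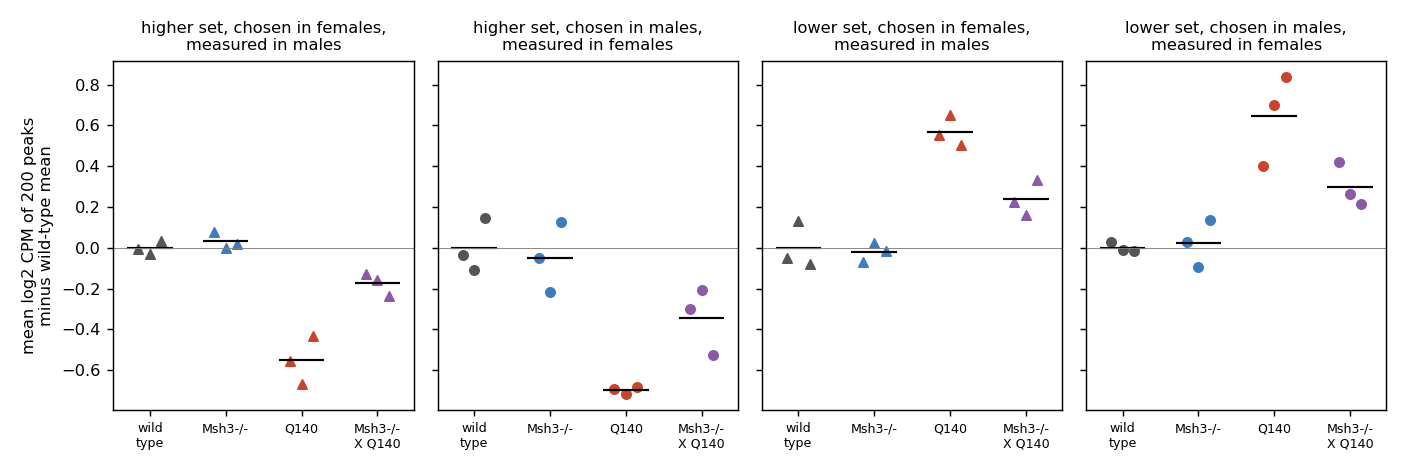
Mean log2 CPM of 200 peaks per animal, minus the wild-type mean of that sex, for peaks chosen in the other sex by a positive (higher set) or negative (lower set) difference of differences, with a bar at the mean of 3 animals. In all 4 panels the Q140 mean lies farther from wild type than the Msh3-/- X Q140 mean, and in females the animals of both groups overlap for the lower set.

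Peaks chosen by the Q140 effect itself, a choice made after seeing the data, gave larger sets with the same course. For the 500 peaks most gained in Q140 females, the Q140 effect in males was 1.15 ± 0.09 with Msh3 and 0.47 ± 0.15 without, and for the 500 most lost it was -1.06 ± 0.07 and -0.46 ± 0.10. Chosen in males and measured in females, gains were 0.95 ± 0.18 and 0.42 ± 0.13, and losses -1.02 ± 0.14 and -0.38 ± 0.25. The differences of differences were -0.67 ± 0.17, 0.60 ± 0.12, -0.53 ± 0.22 and 0.64 ± 0.28 (SE), in the order given. The last is the least certain, and its Msh3-/- females ranged from -0.45 to 0.28 around wild type. In all 4 sets the effect without Msh3 kept the sign of the effect with Msh3.

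The sexes were not shown to differ in this measure. Its value in males minus that in females passed at 0 of 146155 peaks (0.00%) by edgeR's quasi-likelihood test and at 0 by limma-voom, with 7355 peaks at an unadjusted p under 0.05. Without Msh3-/- F3 the count was 4. At Onecut1 the estimates were -1.70 ± 0.36 in females and -1.61 ± 0.32 in males, and at Pphln1 1.19 ± 0.34 and 1.45 ± 0.24. The widest gaps among called peaks were at Cyp26b1 (-0.94 ± 0.45 and -2.10 ± 0.39) and Galc (-1.41 ± 0.50 and -2.47 ± 0.51), both with adjusted p = 0.918 for the difference between sexes. With 3 animals per genotype, females alone gave 0 calls and males alone 20.

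An interaction depends on the scale on which effects are added. On the square root of CPM, tested by limma-trend, 20 peaks were called negative and 2 positive. This setting changed the test along with the scale, so the parts of the scale and the test cannot be told apart. On the log scale, limma-voom called 9 negative and 5 positive, and limma-trend after cyclic loess 97 and 207. Of the 33 peaks, 15 of 19 negative and 2 of 14 positive were called on the square root scale too. The 2 positive ones were those near Nup35 and Npy2r. The peaks at Gm26688, Onecut1, Hoxc8, Cbx8, Tbx5, Emx2 and 5031434C07Rik were among the 15, and the one at Pphln1 was not called on the square root scale.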

How the data were processed

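The authors deposited raw counts of reads per peak for 24 libraries, with 1 shared set of 147020 peaks and an annotation of each peak. Tools named in the submitters' processing notes are BWA, SAMtools, Picard, MACS2 and featureCounts, with GRCm38 as the build. Tool versions, the duplicate filter and any shift of cut sites were not given in the sources used here. A region open in 1 genotype only can be diluted in a shared peak set.

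For the tests, edgeR 4.0.16 (R 4.3.3) was run with TMM scaling, filterByExpr with a count minimum of 10, and a robust quasi-likelihood fit with genotype and sex over all 24 libraries, which share 1 estimate of spread. P-values were adjusted by Benjamini-Hochberg over all tested peaks at 0.05. SE values came from the estimate and the F statistic. CPM are counts divided by the TMM-scaled library size in mega counts. Log2 CPM for scores used a prior count of 2, and the SE of a score came from the spread of animals. Alternatives used limma 3.58.1 and DESeq2 1.42.0. The main test was also run on simulated counts with known interactions. Those counts held no Q140 effect with Msh3 and no library that stood apart. They therefore do not show how the test behaves on data with these features.

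Peaks named are the 12 calls of smallest p per direction, calls at genes of the lists (up to 4 per list), the peaks nearest the starts of Htt and Msh3, and those nearest the starts of the first 3 genes of each list. A gene name means the nearest annotated start. The comparison, the lists and the rules were chosen with earlier results of these data known. The labels give each library its own animal number, no pair of libraries in a genotype was identical, and 0 count columns were left unused. A few peaks that the rule names are not reported here.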

Additional observations from a re-analysis of the deposited data

Results flagged for a closer look

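Of 144 groups of 6 animals examined for a single animal far from the rest, 6 had one, and chance alone marks about 1 in 20. In Msh3-/- X Q140 M1 the 10 highest peaks held 12.7% of counts, well above the other 5 animals of that genotype. Q140 F1 held the lowest Q140 level at the called peak in Tnr, 4.25 CPM, and at that in Gatb, 7.68 CPM. Q140 F2, one of the libraries that stood apart, had the highest Q140 level at the peak near Npy2r, 3.36 CPM. Msh3-/- X Q140 F3 was lowest of its genotype at Gm36536, with 6.97 CPM. Msh3-/- F3 was highest of its genotype at 5031434C07Rik, with 6.72 CPM, and without it the difference of differences there was called as well.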

How the results depend on the processing

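The 14 positive and 19 negative calls became 30 and 31 with scaling by total counts (49.2% positive against 42.4%), 207 and 97 with cyclic loess and limma-trend (68.1%), 85 and 67 with a count minimum of 30, 46 and 32 with the promoter share as a covariate, 63 and 36 by DESeq2 (63.6%), and 5 and 9 by limma-voom. Without a filter there were 29 positive calls, and on the square root scale 2. Without both libraries that stood apart there were 4 and 5, in females only 0 and 0, and in males only 16 and 4. Leaving out 1 animal gave 3 to 107 positive and 4 to 43 negative calls, and 0 to 4 for the difference between sexes. Other settings stayed within 1.5 times. With a replicate block there were 30 positive and 25 negative calls, the 33 among them. Replicate numbers did not pair libraries: 6 of 36 same-numbered pairs correlated above 0.1 (median -0.02), and 4 libraries correlated best with their own number. The labels' animal numbers share leading digits across genotypes, whose meaning is not given, and pairing by them was not tested. Held-out values kept their signs with 100 and 500 peaks. Over the 33 peaks and up to 39 settings, 777 estimates were called as before and 504 missed the threshold in the same direction. A median of 28 counts per peak and library limits the precision. P-values set each estimate against a spread between animals that is pooled over the genotypes and drawn in part from other peaks. No called estimate reversed, and the direction of called peaks is part of their choice.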
